A study of Mus musculus with 20 samples.

Results

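DNA methylation at the Crmp1 locus of mouse hypothalamus was followed in neurons and non-neurons at postnatal day 21 (P21) and at postnatal day 0 (P0, birth). The members are all intervals of the deposited table that overlap chr5:37625000-37690000 on the mm9 assembly, 7 of 50782 intervals. The 4 groups, of 5 libraries each, were P21 neurons, P0 neurons, P21 non-neurons and P0 non-neurons. All came from inbred male C57BL/6 mice with no further treatment named in the labels, and each library pooled 2 hypothalami. Nuclei were sorted on NeuN, a nuclear protein carried by most neurons, so that the non-neuronal group is whatever lacks NeuN (glia, vascular and other cells). Its purity was not analysed here, because marker genes of cell types are not paired with intervals in the table. The labels describe the samples of a group as independent, without saying whether neurons and non-neurons of one number came from the same pool.

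The locus was singled out because reads were lower in P21 neurons than in P0 neurons there. The comparison of ages in neurons, and the comparisons that share its neuron libraries, are therefore given as descriptions, with no p-value for an interval. Counts of calls in them support nothing, and those of the main fit are given beside the share over all tested intervals. The change with age in non-neurons compares libraries that the comparison of ages in neurons does not use, and it was tested. Its scaling, its filter on low counts and its estimate of the spread came from all 20 libraries, neurons included.

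Crmp1 encodes collapsin response mediator protein 1, a cytosolic phosphoprotein of the dihydropyrimidinase-like family that takes part in semaphorin 3A signalling, by which growing axons are repelled and growth cones collapse. It is expressed mainly in the nervous system, above all in developing neurons. Cytosine methylation in mammals lies mostly at CG dinucleotides (CpG). It is usually absent from active CpG-rich promoters and common in gene bodies and between genes.

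The assay, methylation-specific amplification, uses SmaI to cut CCCGGG sites that carry no methylation, then XmaI to cut the methylated sites that remain, and amplifies fragments that carry XmaI ends on both sides. An interval is the stretch between neighbouring cut sites, and its normalised read count (CPM, the usual scaling of reads to library size, here with TMM factors) is higher when the sites at both ends are methylated. The scale is relative. A lower count can stand for loss of methylation in some nuclei or at 1 of the 2 sites, and these cannot be told apart. Neighbouring intervals share a cut site and are not independent. Levels also depend on the length and amplification of a fragment, so counts are compared between groups within an interval and not between intervals.

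Intervals 1 to 6 formed an unbroken chain of 5278 bp in which each interval starts at the cut site where the one before it ends. Interval 1 is chr5:37631957-37634279 (2322 bp), interval 2 is chr5:37634279-37635040 (761 bp) and interval 3 is chr5:37635040-37635255 (215 bp). Interval 4 is chr5:37635255-37635709 (454 bp), interval 5 is chr5:37635709-37636300 (591 bp) and interval 6 is chr5:37636300-37637235 (935 bp). Interval 7, chr5:37683701-37684168 (467 bp), lies 46466 bp further on. Chains of 6 or more touching intervals were uncommon in the table: 373 of them held 5.51% of all intervals. The median length of the 7 intervals was 591 bp, against 611 bp over the whole table.

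An mm9 annotation was not used here, so no exon, intron or promoter is assigned to an interval. In RefSeq on another assembly, GRCm38.p6, Crmp1 (gene ID 12933) spans 50106 bp with 2 transcripts, and its far end overlaps Evc, a gene for a protein at the base of the primary cilium that acts in hedgehog signalling. The stretch from the start of interval 1 to the end of interval 7 measures 52211 bp on mm9, longer than the gene on GRCm38, so that not every interval need lie inside Crmp1.

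RefSeq lists 2 start windows for Crmp1, each 250 bases before to 50 bases after a transcription start on the plus strand of GRCm38.p6, and their starts lie 3706 bp apart, a distance shorter than the chain. Both are shown because a CpG-rich promoter is the kind of sequence at which methylation is usually absent. CpG dinucleotides are in capitals. The upstream window is chr5:37241808-37242107 and the downstream window chr5:37245514-37245813, both in GRCm38 coordinates, which are not comparable with the mm9 positions above.
Upstream start: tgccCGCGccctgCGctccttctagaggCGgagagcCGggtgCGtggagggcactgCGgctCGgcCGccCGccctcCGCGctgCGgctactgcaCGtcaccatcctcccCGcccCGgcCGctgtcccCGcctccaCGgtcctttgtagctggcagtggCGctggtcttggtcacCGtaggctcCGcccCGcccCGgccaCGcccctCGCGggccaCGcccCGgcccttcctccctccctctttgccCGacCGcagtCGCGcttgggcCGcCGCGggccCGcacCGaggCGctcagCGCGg
Downstream start: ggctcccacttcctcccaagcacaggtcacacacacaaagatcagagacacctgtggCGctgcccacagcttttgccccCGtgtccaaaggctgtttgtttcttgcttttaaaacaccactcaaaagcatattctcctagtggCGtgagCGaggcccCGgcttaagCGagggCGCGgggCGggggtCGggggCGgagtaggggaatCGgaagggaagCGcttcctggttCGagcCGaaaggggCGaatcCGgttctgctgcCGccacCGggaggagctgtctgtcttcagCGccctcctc
The upstream window held 41 CpG (77.0% G or C, observed over expected CpG 0.96), more than 96.5% of the 32851 RefSeq start windows of this length, whose median was 7. The downstream window held 20 CpG (61.0% G or C, observed over expected 0.72), more than 73.5% of all windows. The cut site of the assay, CCCGGG, which reads the same on both strands, was in neither window, and 13.5% of all windows hold it.

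Total reads per library ran from 5663740 to 9998110, and 26679 intervals passed a filter on low counts and were tested, among them 6 of the 7 at the locus (interval 4 had too few reads). Interval 3 passed the filter through its non-neuron libraries alone. No neuron library had more than 6 reads there, against the minimum count of 10. Between 679 and 1142 reads per library fell on the locus, and interval 7 alone took 77.0% of them. A count of 0 in a library allows up to 3 reads, which is 0.264 to 0.540 CPM depending on the library. This limit, and the intervals on read ratios and shares below, cover counting error only. Preparation of P0 and P21 libraries cannot be told apart from age.

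The left part of the chain, intervals 2 to 4, was almost without reads in P21 neurons and kept reads in the other 3 groups. Interval 3 had the lowest fitted change with age in neurons. It had 0, 0, 0, 0 and 0.226 CPM in P21 neurons (2 reads in all), against 0.692, 0.600, 1.06, 0.343 and 0.910 CPM in P0 neurons (22 reads). In non-neurons it had 1.39, 1.83, 1.36, 1.39 and 0.587 CPM at P21, against 1.22, 1.92, 1.91, 1.23 and 1.44 CPM at P0. In CPM, every P21 neuron library lay below every library of the other groups, and the P0 neuron libraries lay below all P0 non-neuron libraries. P21 neuron replicate 5 and P0 neuron replicate 4 both had 2 reads, so they differed by library scaling alone. The limit for a count of 0 in P21 neuron replicate 1, 0.380 CPM, also lies above the 0.343 CPM of P0 neuron replicate 4. The ratio of reads, P21 over P0 neurons, was 0.0592 with an exact 95% counting interval of 0.00674 to 0.241. The fitted log2 fold change was -3.63 ± 0.75 (SE), a value that depends on the small count added by the model. It was -5.43 without P21 neuron replicate 5, which held both reads.

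Interval 2 had more reads and the same order of groups. It had 0, 0.176, 0, 0.879 and 0.791 CPM in P21 neurons (17 reads in all), against 4.67, 4.80, 3.52, 5.32 and 3.94 CPM in P0 neurons (136 reads). Non-neurons had 5.16, 6.74, 7.17, 6.95 and 7.63 CPM at P21, against 6.57, 5.45, 7.49, 8.18 and 9.90 CPM at P0. All P21 neuron libraries were below 1 CPM, and no library of another group was below 3.52 CPM. The means were 0.369 ± 0.433 CPM in P21 neurons and 4.45 ± 0.72 CPM in P0 neurons (SD, n = 5 each). The fitted log2 fold change with age in neurons was -3.55 ± 0.39 (SE), an 11.7-fold lower count, and it ran from -4.13 without P21 neuron replicate 4 to -3.23 without replicate 3. Of 26679 tested intervals, 52 had a change in neurons as low as or lower than this. The locus was chosen on this comparison, so nothing is read from the rank.

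P21 neuron replicates 4 and 5 held 15 of the 17 reads of interval 2, and the same libraries held all reads of intervals 3 and 4 in that group. Replicates 1 and 3 had 0 reads in the 3 intervals together. With 3 reads allowed for a count of 0, the limits for those libraries are 0.380 and 0.307 CPM.

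Interval 4 stayed under the filter on low counts and was not part of the fit. It had 0, 0, 0, 0.110 and 0.113 CPM in P21 neurons (2 reads), against 0.865, 0.300, 0.176, 0.172 and 0.758 CPM in P0 neurons (14 reads). Non-neurons had 0.279 to 1.12 CPM at P21 (24 reads), against 0.180 to 1.92 CPM at P0 (34 reads). The ratio of reads, P21 over P0 neurons, was 0.0929 (exact 95% counting interval 0.0103 to 0.405). The P21 neuron libraries again lay below all others in CPM, but their highest read count, 1, was also the lowest read count of the P0 neuron libraries.

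**Figure D1:**
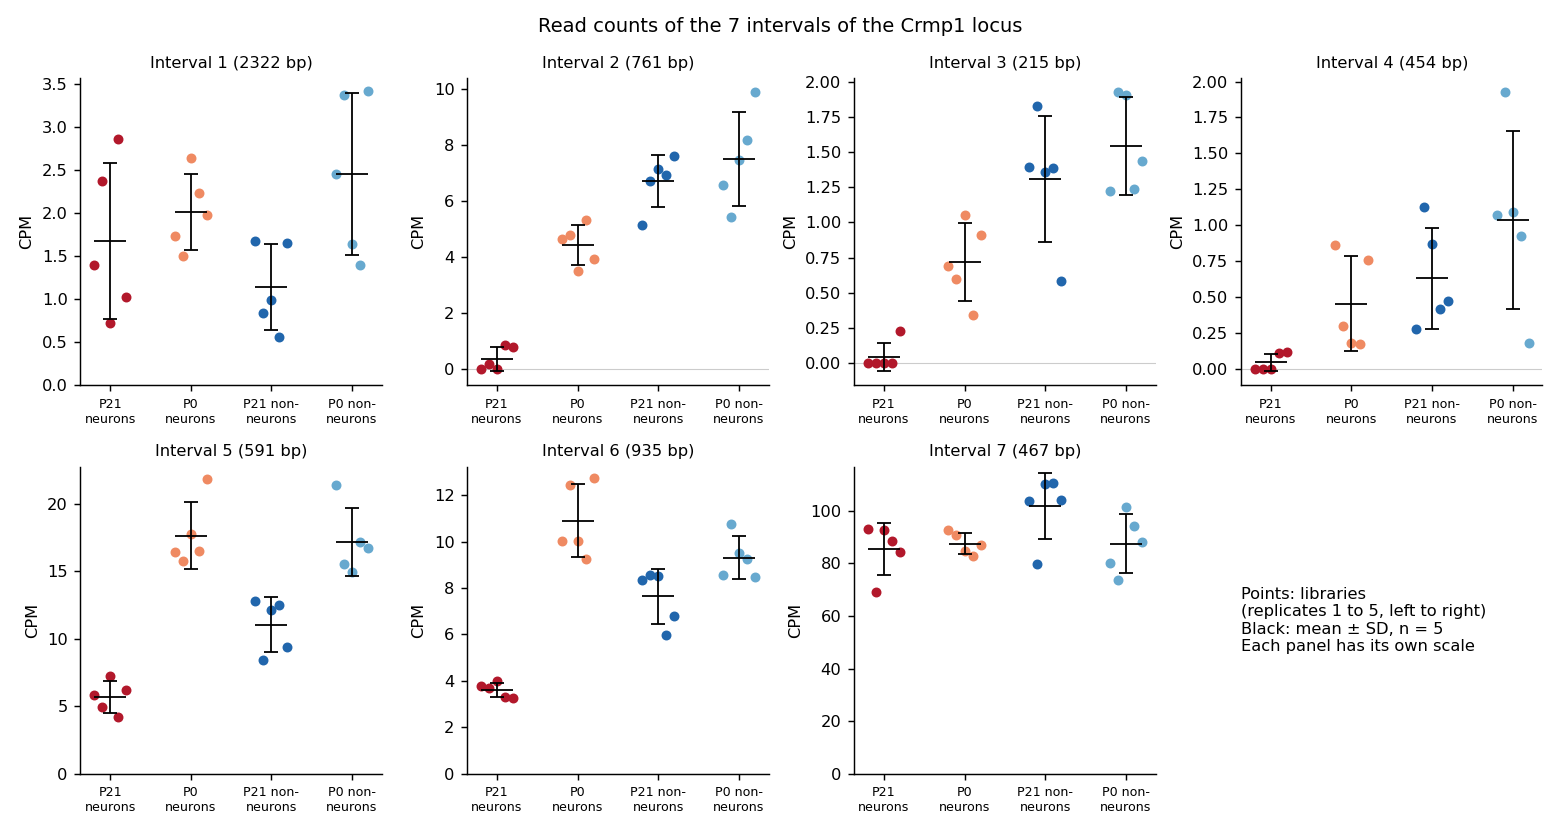
Normalised read count (CPM, linear scale from 0, a separate scale in each panel) of intervals 1 to 7 in P21 neurons, P0 neurons, P21 non-neurons and P0 non-neurons. Points are libraries, black bars the mean ± SD of 5. P21 neurons lie below every other group in CPM in intervals 2 to 6, whereas groups overlap in intervals 1 and 7. In intervals 3 and 4 the highest read count of P21 neurons equals the lowest of P0 neurons.

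The right part of the chain, intervals 5 and 6, was also lower in P21 neurons but kept reads in every library. Interval 5 had 5.83, 4.93, 7.27, 4.18 and 6.22 CPM in P21 neurons, against 16.4, 15.7, 17.8, 16.5 and 21.8 CPM in P0 neurons. The means were 5.68 ± 1.19 CPM in P21 neurons and 17.7 ± 2.5 CPM in P0 neurons (SD, n = 5 each), with a fitted log2 fold change of -1.64 ± 0.16 (SE). Interval 6 had 3.80, 3.70, 3.99, 3.30 and 3.28 CPM in P21 neurons, against 10.03, 12.4, 10.02, 9.27 and 12.7 CPM in P0 neurons, a log2 fold change of -1.59 ± 0.18 (SE). Each P21 neuron library was below each P0 neuron library in both intervals, as in intervals 2 to 4. Such ranges, lower in P21 neurons, were found at 18.6% of all tested intervals, a set without interval 4. Interval 3 entered that set only through its non-neuron reads, so nothing is read from its place in this share.

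At intervals 1 and 7 the ages overlapped in neurons. Interval 1, the first of the chain, had 1.39, 2.38, 0.717, 2.86 and 1.02 CPM in P21 neurons, against 1.73, 1.499, 2.64, 2.23 and 1.97 CPM in P0 neurons, with a log2 fold change of -0.25 ± 0.37 (SE). Interval 7 had 93.0, 69.2, 92.5, 88.4 and 84.3 CPM in P21 neurons, against 92.5, 90.7, 84.6, 82.7 and 86.9 CPM in P0 neurons, a log2 fold change of -0.04 ± 0.10 (SE). The label of the locus as lower in P21 neurons thus fits intervals 2 to 6 and neither interval 1 nor interval 7. Interval 1 shares the cut site at 37634279 with interval 2. The sites at 37635040 and 37635255 belong to intervals 2 to 4 alone.

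In the fit over the whole table, 4 of the 6 tested intervals of the locus passed an adjusted p of 0.05 as lower in P21 neurons, and 26.3% of all tested intervals did; since the locus was chosen on this comparison, nothing is read from the count. The median log2 fold change with age in neurons was -1.61 over the 6 intervals and 0.06 over all tested intervals.

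The change with age in non-neurons was then tested, to see whether the intervals changed with age in cells that were not used to choose the locus. Of the 6 tested intervals, 2 fell and 0 rose, against 25.8% falling and 28.5% rising among all tested intervals. Interval 5 fell to 12.8, 8.42, 12.1, 12.5 and 9.40 CPM in P21 non-neurons, against 21.4, 15.6, 14.97, 17.1 and 16.7 CPM in P0 non-neurons, with no overlap. Its log2 fold change was -0.63 ± 0.16 (SE; adjusted p = 0.000757 by edgeR), a 1.55-fold lower count. Ranges that do not overlap in this direction were found at 18% of all tested intervals. The call was lost when the trend of reads with interval length was removed from each library (log2 fold change -0.26, adjusted p = 0.144 by edgeR).

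Interval 1 also fell in non-neurons, with 1.67, 0.842, 0.989, 0.556 and 1.64 CPM at P21 against 2.45, 3.37, 1.63, 1.39 and 3.42 CPM at P0. The log2 fold change was -1.07 ± 0.39 (SE; adjusted p = 0.0183 by edgeR), although the ranges overlapped and no non-neuron library had more than 21 reads there. The adjusted p was 0.0644 with library totals in place of TMM, 0.109 with P0 replicates 4 and 5 only, and 0.0592, 0.0564 and 0.0574 without P0 non-neuron replicate 2, P0 non-neuron replicate 5 and P21 non-neuron replicate 4.

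The intervals that were nearly without reads in P21 neurons did not pass the test in non-neurons. Interval 2 averaged 6.73 ± 0.94 CPM in P21 non-neurons and 7.52 ± 1.68 CPM in P0 non-neurons (SD, n = 5 each). Its log2 fold change was -0.15 (95% interval -0.65 to 0.34; adjusted p = 0.628 by edgeR). Interval 3 averaged 1.31 ± 0.45 CPM in P21 non-neurons and 1.55 ± 0.35 CPM in P0 non-neurons, a log2 fold change of -0.25 (95% interval -1.04 to 0.53; adjusted p = 0.61 by edgeR), a wide interval at this depth. For interval 4, outside the fit, the means were 0.631 CPM at P21 and 1.04 CPM at P0 (two-sided exact permutation p = 0.286; the smallest that 5 against 5 libraries allow is 0.00794).

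Interval 6 had 8.37, 8.56, 8.53, 5.97 and 6.81 CPM in P21 non-neurons, against 8.56, 10.7, 9.53, 9.26 and 8.46 CPM in P0 non-neurons (fitted change -0.28 ± 0.17 in log2, SE; adjusted p = 0.15 by edgeR). Interval 7, with the only fold change above 0 among the 6 tested in non-neurons, had 104, 79.9, 110.2, 111 and 104 CPM in P21 non-neurons, against 80.3, 73.6, 102, 94.2 and 88.0 CPM in P0 non-neurons. Its log2 fold change of 0.22 ± 0.10 (SE; adjusted p = 0.058 by edgeR) missed the threshold. It passed in 7 of the settings tried, among them removal of the length trend (0.50, adjusted p = 4.24e-08 by edgeR), library totals (0.44, adjusted p = 2.33e-05 by edgeR), which raised the median change of all intervals by 0.22, and the fit without P21 non-neuron replicate 2, the lowest of its group (0.29, adjusted p = 0.00891 by edgeR). The other 4 were upper-quartile factors, the replicate block, and leaving out P0 non-neuron replicate 3 or P21 neuron replicate 2 (adjusted p = 0.0229 to 0.0383 by edgeR). The median log2 fold change with age in non-neurons was -0.27 over the 6 intervals and 0.03 over all tested intervals.

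**Figure D2:**
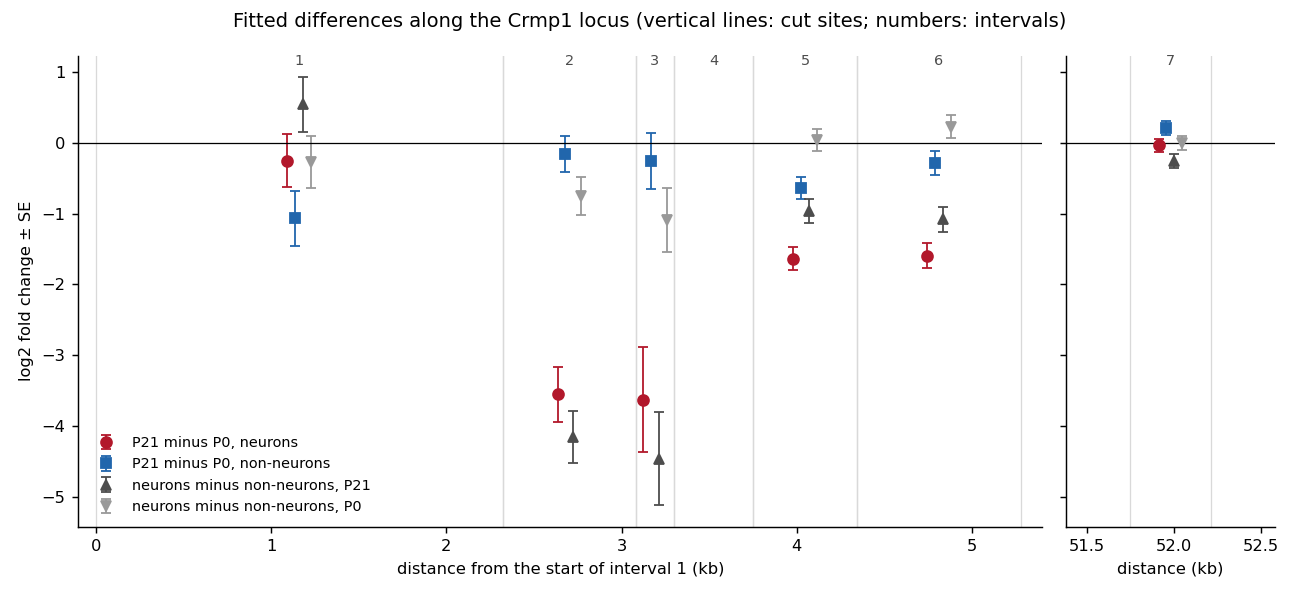
Fitted log2 fold change ± SE of the 6 tested intervals against the distance from the start of interval 1 (kb), for the age change (P21 minus P0) of each cell type and for neurons minus non-neurons at P21 and at P0. Vertical lines are cut sites, interval 4 was not fitted, and the axis is broken before interval 7; the changes in neurons are deepest at intervals 2 and 3 (-3.55 and -3.63), -1.64 and -1.59 at intervals 5 and 6, and near 0 at interval 7.

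Neurons and non-neurons were set side by side at each age. At P21 the difference was large in the left part of the chain. The log2 fold change, neurons over non-neurons, was -4.15 ± 0.37 (SE) at interval 2, a 17.8-fold lower count, and -4.46 ± 0.66 at interval 3. Without P21 neuron replicate 5 the value of interval 3 was -6.27. In the right part it was -0.96 ± 0.17 at interval 5 and -1.08 ± 0.18 at interval 6. Ranges did not overlap in intervals 2 to 6, which 7.33% of all tested intervals, a set without interval 4, shared in this direction. Interval 3 entered the tested set only through its non-neuron reads, so nothing is read from its place in this share. Interval 1 had a higher mean in P21 neurons, 1.67 ± 0.91 CPM against 1.14 ± 0.50 CPM in P21 non-neurons (SD, n = 5 each), with overlapping ranges. Interval 7 had 85.5 ± 9.8 CPM in P21 neurons and 102 ± 13 CPM in P21 non-neurons, and the ranges overlapped. Lower in P21 neurons at an adjusted p of 0.05 were 5 of the 6 tested intervals, against 15% of all tested intervals, a count from which nothing is read because P21 neurons entered the choice of the locus. Interval 7, the fifth of them, no longer passed in 9 of the settings tried.

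At P0, intervals 2 and 3 had a lower CPM in every neuron library than in every non-neuron library, whereas ranges overlapped in the other intervals. Interval 2 averaged 4.45 ± 0.72 CPM in P0 neurons and 7.52 ± 1.68 CPM in P0 non-neurons (SD, 5 libraries each). The fitted difference was -0.75 ± 0.27 on the log2 scale (SE). The highest P0 neuron library, at 5.32 CPM, was just below the lowest P0 non-neuron library, at 5.45 CPM. Interval 3 averaged 0.720 ± 0.276 CPM in P0 neurons and 1.55 ± 0.35 CPM in P0 non-neurons, a log2 fold change of -1.09 ± 0.45 (SE), again without overlap. Such ranges, lower in P0 neurons, were found at 2.75% of all tested intervals. As interval 3 was tested only because of its non-neuron reads, nothing is read from its place in this share. Intervals 5 and 6 had log2 fold changes of 0.04 ± 0.15 and 0.23 ± 0.17 (SE), interval 1 had -0.27 ± 0.37 and interval 7 had 0.00 ± 0.10.

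At P0, 0 of the 6 intervals passed an adjusted p of 0.05 in the edgeR fit, against 2.86% of all tested intervals called lower and 6.92% called higher. An unadjusted p under 0.05 was found for 2 of them, and for 5274 of all 26679 tested intervals in either direction. DESeq2 and limma-voom each called 1, interval 2, against 2731 and 2430 of all 26679 tested intervals in either direction. These values describe the locus and, as they share the P0 neuron libraries, are no independent test.

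The order of the 4 group means therefore differed between the left and right parts of the chain. In intervals 2 to 4 the order, high to low, was P0 non-neurons, P21 non-neurons, P0 neurons and P21 neurons, with overlap between each pair of neighbours except P0 and P21 neurons. In intervals 5 and 6 it was P0 neurons, P0 non-neurons, P21 non-neurons and P21 neurons. The ranges of P0 neurons and P0 non-neurons overlapped in both, so their order there is not established. P21 neurons were separate from P21 non-neurons in both, and in interval 5 P21 non-neurons were also separate from P0 non-neurons. In intervals 1 and 7 every pair of neighbours in the order overlapped.

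The difference of the age changes between cell types (P21 minus P0 in neurons, minus the same in non-neurons) was -3.40 ± 0.48 (SE, log2) at interval 2 and -3.37 ± 0.86 at interval 3, and -5.18 at interval 3 without P21 neuron replicate 5. It was -1.0 ± 0.23 at interval 5 and -1.31 ± 0.24 at interval 6, against 0.82 ± 0.53 at interval 1 and -0.25 ± 0.14 at interval 7. In this interaction 4 of the 6 intervals were called negative, against 3.24% of all tested intervals, which again includes the neuron comparison used to choose the locus.

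**Figure D3:**
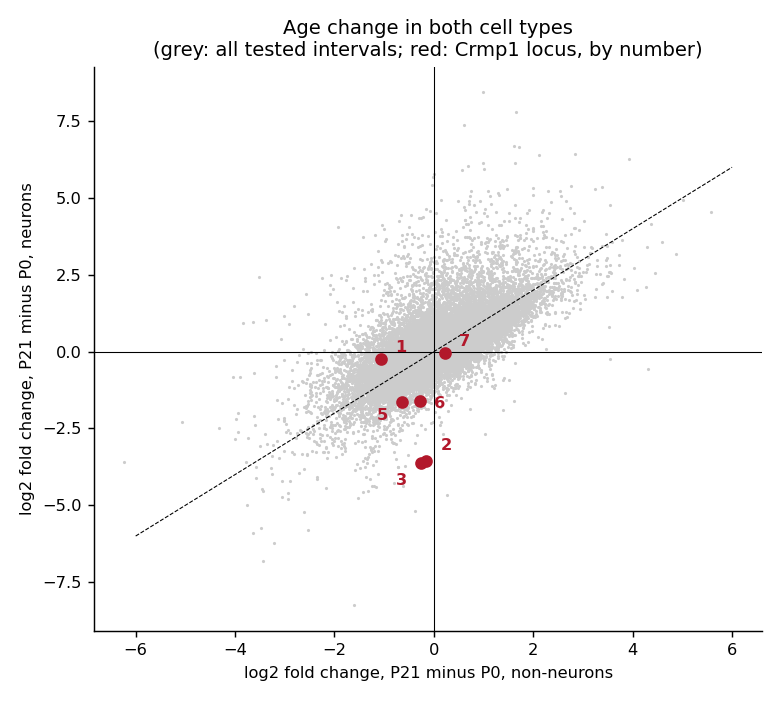
Fitted log2 fold change, P21 minus P0, in neurons (vertical axis) against non-neurons (horizontal axis) for the 26679 tested intervals (grey) and the 6 tested intervals of the locus (red, by number); the dashed line marks equal change. Intervals 2 and 3 lie at -3.55 and -3.63 in neurons and between -0.25 and -0.15 in non-neurons. Intervals 5 and 6 lie at -1.64 and -1.59 in neurons and at -0.63 and -0.28 in non-neurons. Interval 1 lies above the dashed line and interval 7 slightly below it.

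The left and right parts of the chain were also compared within each library, a measure that a common scaling factor of a library cannot move. It sets intervals of different length against each other. A trend of reads with length that differs between libraries could move it, which was not tested. The split was chosen after the values were seen and carries no test. Reads of intervals 2 to 4 made up 0%, 2.00%, 0%, 11.7% and 10.6% of the reads of intervals 2 to 6 in P21 neurons, against 19.0%, 16.8%, 14.6%, 18.5% and 14.0% in P0 neurons. In non-neurons they made up 24.4%, 36.3%, 31.3%, 32.1% and 34.9% at P21, against 22.8%, 26.1%, 30.0%, 28.2% and 31.4% at P0. The means were 4.87 ± 5.82% in P21 neurons and 16.6 ± 2.3% in P0 neurons, and 31.8 ± 4.6% in P21 non-neurons and 27.7 ± 3.4% in P0 non-neurons (SD, n = 5 each). Every neuron library had a lower share than every non-neuron library at either age, and the shares of non-neurons at P21 and P0 overlapped. The exact 95% binomial interval for 0 of 76 reads in P21 neuron replicate 1 reached 4.74%, and for 9 of 77 reads in replicate 4 it was 5.49% to 21.03%.

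**Figure D4:**
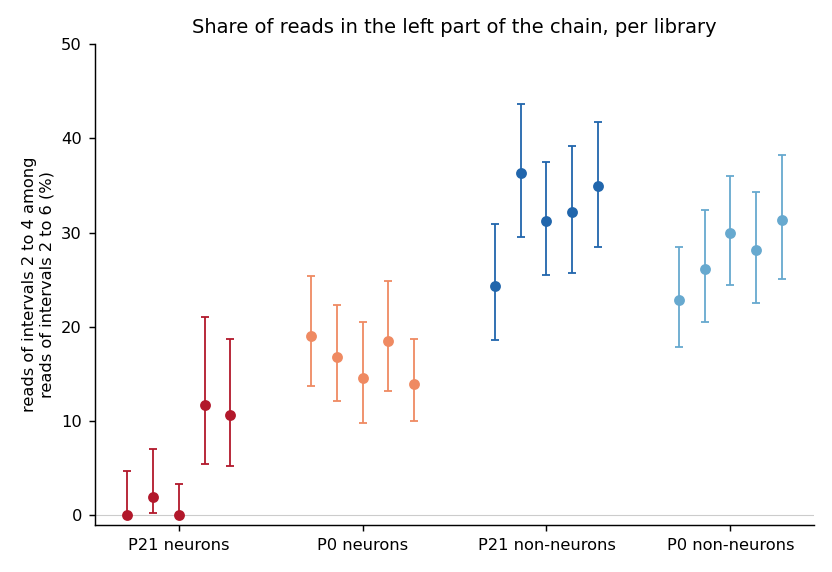
Share of reads of intervals 2 to 4 among reads of intervals 2 to 6 (%) in each library of P21 neurons, P0 neurons, P21 non-neurons and P0 non-neurons, with exact 95% binomial intervals (counting error only). P21 neurons lie between 0% and 11.7%, P0 neurons between 14.0% and 19.0%, and non-neurons between 22.8% and 36.3%.

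Over the 20 libraries, log2 CPM of intervals 2, 3, 5 and 6 correlated with each other at Pearson r = 0.74 to 0.91, a description in which the points share libraries, groups and, for neighbours, a cut site. The same 4 intervals correlated with interval 1 at r = 0.03 to 0.23 and with interval 7 at r = 0.08 to 0.28.

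Among the 13338 other intervals with at least the median level, those whose log2 CPM followed interval 3 most closely over the 20 libraries were taken as most like it, by a measure of likeness with no test. The closest was chr11:94935913-94937091 (r = 0.95), with 5.71 ± 0.98 CPM in P21 neurons, 17.0 ± 3.2 in P0 neurons, 25.7 ± 2.9 in P21 non-neurons and 25.4 ± 1.9 in P0 non-neurons (SD, n = 5 each). The others were chr7:106468973-106469301 (r = 0.94), chr17:27838576-27839812 (r = 0.93), chr11:80296307-80297734 (r = 0.93) and chr17:27837475-27838576 (r = 0.93), and the 2 intervals on chromosome 17 share a cut site. In all 5 the mean was lowest in P21 neurons and next lowest in P0 neurons, as at interval 3. Choosing them by their correlation with interval 3 favours this order, so nothing is read from it.

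The surroundings were described by counts. Within 500 kb on either side of the region, 26 of 36 other intervals were tested. With age in neurons, 15 were called lower and 0 higher, against 26.3% lower and 31% higher among all tested intervals. Their median log2 fold change in neurons was -0.38 (range -1.74 to 0.55). With age in non-neurons, 11 fell and 3 rose, with a median of -0.24, against 25.8% and 28.5% of all tested intervals. The interaction was called negative at 2 and positive at 1 of the 26, against 3.24% and 10.9%.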

How the data were processed

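The members, the gene region and the order of description were chosen with earlier results of these data known. Per the submitters' processing notes, the tools were Bowtie 0.12.9, cutadapt and FastQC 0.10.1, on the mm9 build. The authors deposited unnormalised counts of reads in each SmaI/XmaI interval; the unit was read off the values, all whole, whose totals vary from library to library. The rule for counting reads in an interval is not stated in the labels. Columns were matched to libraries by age, letter (N neurons, G non-neurons) and number, with 0 columns left over.

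Intervals were kept with filterByExpr (minimum count 10, total 15) of edgeR 4.0.16 in R 4.3.3, scaled by TMM, and fitted with 1 mean per group over all 20 libraries (glmQLFit, robust). Contrasts were tested with glmQLFTest and Benjamini-Hochberg adjustment over all 26679 tested intervals. The standard error is the fold change divided by the square root of the F statistic, and 95% intervals of fold changes use it with the normal approximation. The fit was tested on simulated counts. Replicate libraries differed by more than counting noise (chi-square per degree of freedom 2.00 to 9.31 over 40 pairs). All 7 intervals of the region are named, and outside it the 5 most like the interval with the lowest fitted change in neurons. Alternatives used other scalings, filters, DESeq2 1.42.0, limma-voom (limma 3.58.1), subsets of libraries, a length correction (lowess, span 0.2) and a replicate block. Log2 CPM used a prior count of 2. Exact tests and intervals used scipy 1.17.1, and plots matplotlib 3.10.9. A list of CRMP family and semaphorin 3A signalling genes was not analysed here, since an mm9 annotation was not used.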

Additional observations from a re-analysis of the deposited data

Results flagged for a closer look

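The age change differed between neurons and non-neurons at 4 intervals in the interaction fit, all negative. Of all tested intervals, 3.24% were called negative and 10.9% positive. The difference was -3.40 (log2) at interval 2, -3.37 at interval 3, -1.0 at interval 5 and -1.31 at interval 6. The locus was chosen for its change in neurons, so these values are a description.

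In 2 groups 1 library met Dixon's criterion for a value apart from the other 4. At interval 3, P21 neuron replicate 5 had 0.226 CPM, from 2 reads, and the other 4 libraries had 0. With 4 values tied at 0, any read in the fifth library meets the criterion, and the limits that a count of 0 allows in those 4, 0.264 to 0.380 CPM, lie above 0.226 CPM, so this library is not shown to stand apart. At interval 7, P21 non-neuron replicate 2 had 79.9 CPM, and the other 4 had 104 to 111 CPM. Chance alone flags about 1 in 20 groups of this size without ties.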

How the results depend on the processing

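With age in neurons 4 intervals were called, and 3 to 5 under every alternative run; leaving out single libraries gave 4 each time. These counts restate the choice of the locus and are no support for it. Removing the length trend turned interval 7 in neurons to 0.23 (log2) and called it higher. With age in non-neurons 2 intervals were called, but 1 with at least 20 reads in at least 5 libraries, where interval 1 was not tested, and 1 with P0 replicates 4 and 5 only; leaving out single libraries gave 1 to 3. For cell type at P0, where 0 were called, 1 was called with upper-quartile factors, DESeq2, limma-voom, only the groups compared, the replicate block and the length correction, in each case interval 2 (log2 fold change -0.86 to -0.72); leaving out single libraries gave 0 to 1. Of all 26679 tested intervals, 2638, 2731, 2430 and 3425 were called at P0 with upper-quartile factors, DESeq2, limma-voom and the length correction. For cell type at P21 leaving out single libraries gave 4 to 5 calls, and for the interaction it gave 4 each time. With at least 20 reads in at least 5 libraries, 13576 of 23174 tested intervals were called with age in non-neurons, in either direction. Shares of all tested intervals are not given here for single libraries left out, P0 replicates 4 and 5 only, or only the groups compared. Nothing is read from the counts under those settings. In the interaction, interval 3 lost its call with P0 replicates 4 and 5 only (-3.43 in log2), and interval 7 gained one with the length trend removed (-0.28). The causes of these changes were not tested.

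Same-numbered neurons and non-neurons deviated together only in part (r = -0.01 to 0.32 over 10 pairs, the own number being the closest in 4), so the numbers were not taken to pair libraries. With the replicate block there were 4 calls for age in neurons. There were 3 for age in non-neurons, with interval 7 added (0.21 in log2, edgeR adjusted p = 0.0236). Cell type gave 1 call at P0 and 5 calls at P21, and the interaction gave 4. The share of all tested intervals called with the replicate block is not given here, so nothing is read from these counts. Depth limits intervals 3 and 4 most: no library had more than 14 reads in either.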
